A study of Mus musculus with 4 samples.

Results

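The Toll-like receptors described here are the 10 genes Tlr1, Tlr2, Tlr3, Tlr4, Tlr5, Tlr6, Tlr7, Tlr8, Tlr9 and Tlr13. They were taken by gene symbol, the family having been picked with earlier results of these data known, and all 10 were present among the 32285 genes of the deposited tables. The other mouse members of the family, Tlr11 and Tlr12, are given only where they stand beside these receptors. For each gene the unique molecular identifiers (UMIs, one per captured RNA molecule) were summed over the cells of a type in each library, and the level is given as UMIs per 1000000 UMIs of those cells (CPM). These 3′ counts are not divided by gene length, so levels are compared between cells and libraries, and between genes only as UMIs captured.

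The 4 single-cell RNA-sequencing libraries came from lung and synovium of female C57BL/6 mice that were 4 months old. TNF+ mice were of a TNF-Tg line that carries 1 copy of the human TNF-α gene and develops inflammatory arthritis and lung disease, and TNF- mice were their wildtype littermates. Each library pooled mice of 1 genotype, 3 to 5 for lung and 5 to 10 for synovium, so each group was 1 library and the spread between mice was not measured. Tissue was digested with enzymes and viable cells were sorted. The human transgene is not part of the mouse reference and was not measured. With 1 library per group there was no test, and a difference between TNF+ and TNF- compares 2 pools of mice. All intervals are exact 95% intervals that cover counting error only, Poisson for a level and conditional binomial for the log2 ratio of TNF+ over TNF-. Where a pair of values is given without group names, the first is TNF- and the other TNF+.

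Toll-like receptors are membrane proteins whose leucine-rich ectodomain binds microbial products and whose intracellular TIR domain recruits adaptors. Tlr1, Tlr2, Tlr4, Tlr5 and Tlr6 act mainly at the cell surface. Tlr2 pairs with Tlr1 or Tlr6 to bind lipoproteins, Tlr4 with its co-receptor Ly96 (MD-2) binds lipopolysaccharide, and Tlr5 binds flagellin. Tlr3, Tlr7, Tlr8, Tlr9 and Tlr13 act in endosomes and bind nucleic acids, which are double-stranded RNA for Tlr3, RNA or its breakdown products for Tlr7 and Tlr8, unmethylated CpG DNA for Tlr9 and bacterial ribosomal RNA for Tlr13. Myd88 is the adaptor of these receptors except Tlr3, which signals through Ticam1 (TRIF), an adaptor that Tlr4 also uses. The pathway ends in NF-κB and interferon regulatory factors, which drive inflammatory cytokines, Tnf among them, and type I interferons. Alveolar macrophages and airway epithelium meet inhaled microbes first, and in inflamed joints Tlr2 and Tlr4 have been studied as receptors of both microbial and endogenous ligands.

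In the mm10 (GRCm38) annotation, some of these genes lie next to each other. Tlr1 (chr5:64924679-64933563) and Tlr6 (chr5:64952031-64960097) are neighbouring paralogs on the minus strand, and because reads of close paralogs can be shared, their values are less certain than those of the others. Tlr7 (chrX:167304929-167330558) and Tlr8 (chrX:167242696-167264329) are neighbours on the minus strand of the X chromosome, which also holds Tlr13 (chrX:106143204-106160493, plus strand). Tlr2 lies at chr3:83836272-83841767 and Tlr3 at chr8:45395665-45411080, both on the minus strand, and Tlr3 overlaps the gene model Gm45542 on the other strand. Tlr4 (chr4:66827584-66930284), Tlr5 (chr1:182954788-182976044) and Tlr9 (chr9:106222598-106226883) lie on the plus strand. Introns count toward a gene's UMIs here, as well as exons.

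The RefSeq start regions (GRCm38.p6, 250 bases before the start to 50 after, 5′ to 3′ on the gene's strand) of 4 receptors that the results turn on are printed with motif matches in capitals. Tlr2 (chr3:83841559-83841858) and Tlr3 (chr8:45410331-45410630) are shown for the NF-κB motif, since they were the receptors whose TNF+ levels lay farthest above and below TNF- over the whole lung. Tlr13 (chrX:106143025-106143324) and Tlr8 (chrX:167264280-167264579) are shown for the core of PU.1, the transcription factor of myeloid cells, because their UMIs came almost wholly from myeloid cells.
Tlr2: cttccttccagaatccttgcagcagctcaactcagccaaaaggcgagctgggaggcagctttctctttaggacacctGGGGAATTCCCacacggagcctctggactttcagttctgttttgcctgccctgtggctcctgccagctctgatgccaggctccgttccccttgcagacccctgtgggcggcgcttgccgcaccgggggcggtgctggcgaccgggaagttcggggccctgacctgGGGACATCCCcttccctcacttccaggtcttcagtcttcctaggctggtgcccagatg
Tlr3: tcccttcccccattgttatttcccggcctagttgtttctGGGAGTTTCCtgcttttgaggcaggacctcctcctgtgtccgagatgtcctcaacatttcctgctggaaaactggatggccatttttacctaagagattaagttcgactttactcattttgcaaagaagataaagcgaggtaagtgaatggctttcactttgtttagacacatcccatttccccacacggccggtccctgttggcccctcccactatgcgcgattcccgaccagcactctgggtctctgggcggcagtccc
Tlr13: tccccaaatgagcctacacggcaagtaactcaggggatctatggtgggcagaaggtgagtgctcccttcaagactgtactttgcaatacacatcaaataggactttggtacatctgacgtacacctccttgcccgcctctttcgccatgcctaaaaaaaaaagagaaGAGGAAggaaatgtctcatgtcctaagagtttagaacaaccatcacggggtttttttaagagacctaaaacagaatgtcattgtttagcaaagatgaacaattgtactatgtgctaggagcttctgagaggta
Tlr8: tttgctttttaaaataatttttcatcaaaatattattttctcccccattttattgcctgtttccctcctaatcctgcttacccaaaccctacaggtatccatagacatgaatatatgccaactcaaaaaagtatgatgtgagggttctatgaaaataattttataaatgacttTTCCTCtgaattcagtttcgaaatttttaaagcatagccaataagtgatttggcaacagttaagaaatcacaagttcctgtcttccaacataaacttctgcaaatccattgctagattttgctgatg
The Tlr2 window held 3 matches to the NF-κB motif, of which the pair at positions -173 and -172 overlap in 1 capital run and the other starts at -8 from the start site. The Tlr3 window held 1 NF-κB match at -211. A match to this motif, read on both strands, was present in 8.46% of the 32851 start regions of the same length. The PU.1 core GAGGAA stood at -83 in Tlr13, at -77 on the other strand in Tlr8, at -23 in Tlr1 and at -112 and +13 in Tlr9, and it was present in 28.3% of start regions. The windows of Tlr2 and Tlr6, also captured mainly in myeloid cells of TNF- lung, did not hold it. Tlr1 and Tlr9, which did, came mostly from lymphocytes there. Tlr1 and Tlr6 have 2 start regions each in RefSeq. In 1 of those of Tlr6 (chr5:64959117-64959416), 2 matches to the interferon-stimulated response element stood at -116 and -110, a motif present in 3.44% of start regions, and the other Tlr6 region held 0 matches to any motif searched, as did the other Tlr1 region. The Tlr9 window also held the AP-1 motif TGANTCA at -58, which was present in 7.81%. A match describes letters in the window and does not show that a factor bound there.

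After filtering, the lung libraries held 6998 (TNF-) and 9174 (TNF+) cells and the synovial libraries 6200 and 3152, with 33047125 to 84398714 UMIs each and medians of 7137 to 12492 UMIs per cell. The filter on cells, taken from the study, left out barcodes that held 59.8%, 57.0%, 17.7% and 18.4% of the receptor UMIs in the same order of libraries, most of them by the limit of 5000 genes in the first 3. Between 5 and 21 cell barcodes were shared by any pair of libraries. Cells were clustered within each tissue and named from marker genes, so each name below means cells like that type. Lung clusters carried markers of alveolar epithelium, endothelium and fibroblasts, and synovial clusters those of fibroblasts, mural cells, endothelium and muscle. Myeloid cells were 15.1% of TNF- and 53.5% of TNF+ lung cells, and 10.1% of TNF- and 38.9% of TNF+ synovial cells. Clusters left unnamed held 0.886%, 2.64%, 4.66% and 13.3% of cells in the same order. TNF+ lung cells of several types were shallow, with a median of 766 UMIs in endothelial cells (5584 in TNF-), 912 in fibroblasts (2457), 644 in mural cells (8745) and 1053 in macrophages (5214). The part of depth in the values of these types was not tested.

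Most of the receptors were captured mainly in myeloid cells. In TNF- lung, myeloid cells held 96.2% of the Tlr13 UMIs, 94.98% of Tlr8, 84.1% of Tlr2, 81.9% of Tlr7 and 72.4% of Tlr6. Tlr1 and Tlr9 came mostly from lymphocytes, with 76.7% and 77.8% of their UMIs there. Tlr3 was captured mostly in endothelial cells (73.9%), and Tlr4 was split between myeloid (51.8%) and endothelial cells (26.6%). Of the Tlr5 UMIs, 52.2% came from myeloid and 38.8% from epithelial cells. In TNF- synovium, mesenchymal cells held 88.6% of Tlr4 and 70.8% of Tlr3, and myeloid cells held 73.7% of Tlr2 and 91.7% of Tlr7.

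The lineage that supplied a receptor differed between TNF- and TNF+ libraries. Endothelial cells held 73.9% of Tlr3 UMIs in TNF- lung and 13.5% in TNF+ lung, where myeloid cells held 68.6%. For Tlr4, the myeloid share was 51.8% in TNF- and 75.8% in TNF+ lung. In synovium it was 3.68% in TNF- and 47.1% in TNF+, while the mesenchymal share of Tlr4 was 88.6% and 19.02%. The shares of cells differed between the libraries as well, so these shares describe where the RNA came from and not a level per cell. The mesenchymal share of TNF+ synovium leaves out unnamed cells, among them a cluster led by Saa3 and Mmp13 that is described below.

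Orders of levels are over named types of at least 50 cells, which leaves out 26 TNF- and 23 TNF+ synovial neutrophils and the few plasmacytoid dendritic cells of lung. Alveolar macrophages had the highest combined receptor level of the lung types, with 638 CPM over the 10 genes in TNF- and 741 CPM in TNF+ lung. Nonclassical monocytes had 544 and 445 CPM, neutrophils 458 and 499 CPM, and lung macrophages 405 and 459 CPM. In T, NK or innate lymphoid cells the sum was 22.2 and 32.8 CPM. In synovium the sum was 444 and 465 CPM in macrophages and 459 and 296 CPM in nonclassical monocytes. Synovial fibroblasts had 94.6 and 78.2 CPM, the larger part of it Tlr4. Ranked by CPM, the highest level of 8 receptors in TNF- lung, 9 in TNF+ lung, and 8 in each synovial library was in a myeloid type.

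**Figure D1:**
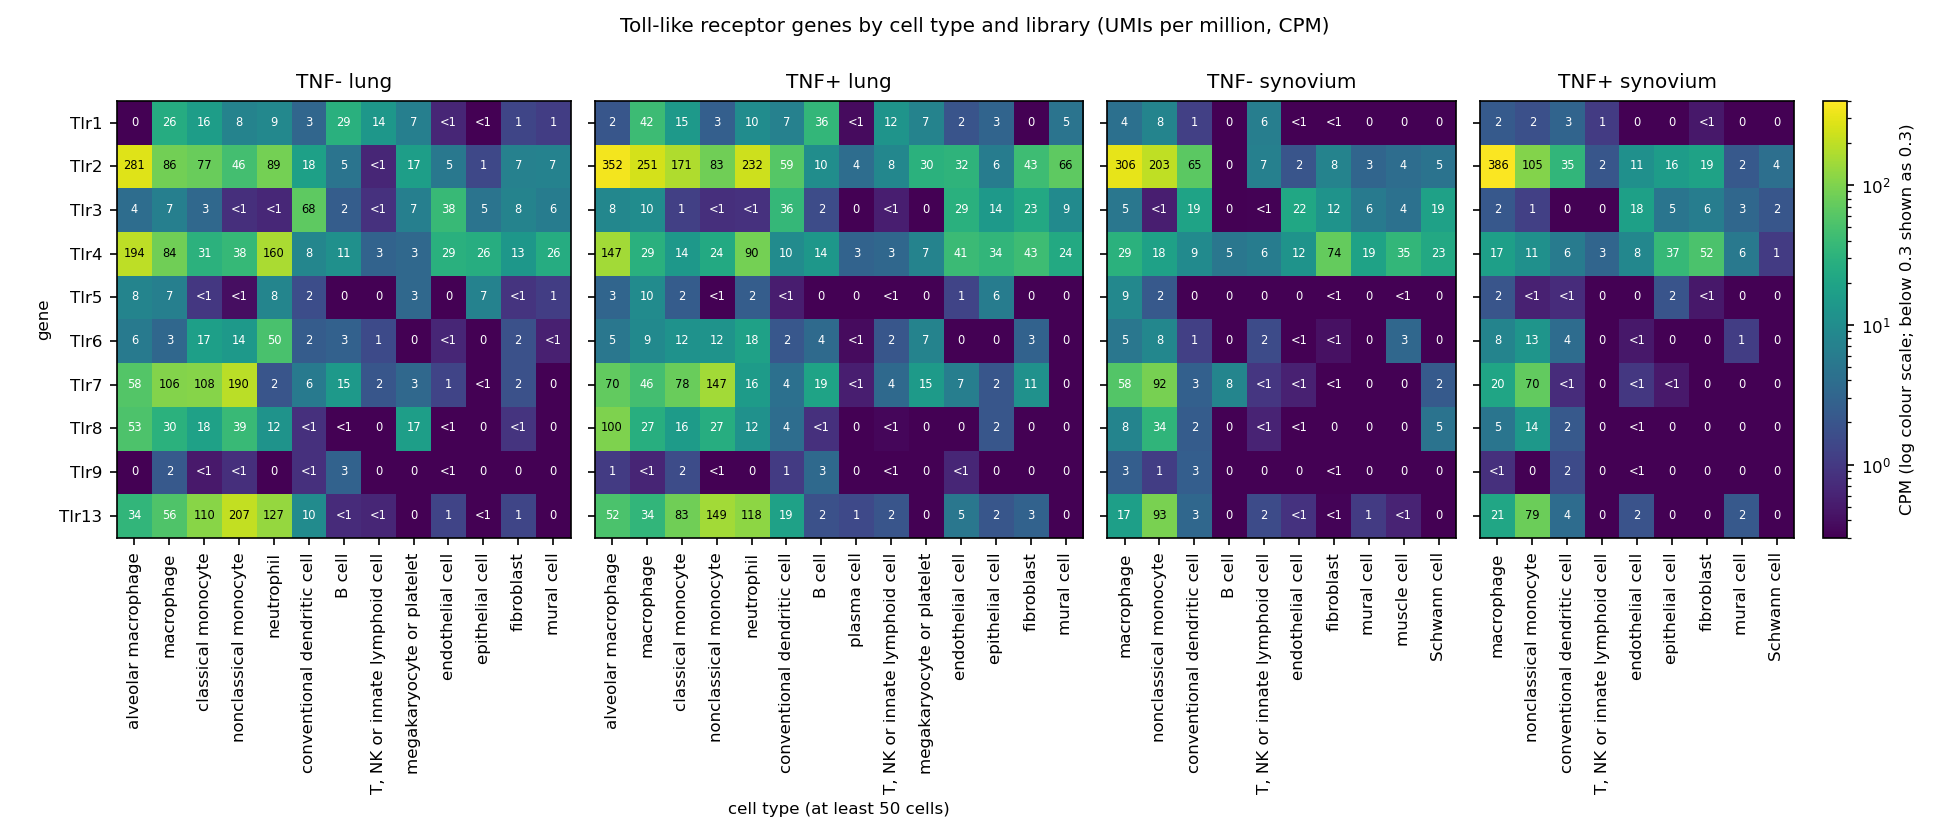
Heat maps of the level of each of the 10 Toll-like receptor genes (rows) in each cell type of at least 50 cells (columns) in the 4 libraries, with the rounded value in each field. Colour is CPM on a log scale with a floor for the lowest values, and brighter fields are higher levels, among them Tlr2 in macrophages and alveolar macrophages and Tlr7 and Tlr13 in nonclassical monocytes.

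Over the whole lung, Tlr2, Tlr7, Tlr8 and Tlr13 were more than 2-fold higher in TNF+ and Tlr3 was more than 2-fold lower. These were 4 higher and 1 lower of the 10 receptors, beside 5.79% of the 19510 genes with 20 or more UMIs in TNF- and TNF+ together that were at least 2-fold higher and 25.5% that were at least 2-fold lower. Tlr2 was at 20.9 and 74.5 CPM in TNF- and TNF+ lung (log2 ratio 1.83, 95% interval 1.74 to 1.93). Tlr13, the receptor of bacterial ribosomal RNA, was at 20.5 and 63.3 CPM (log2 ratio 1.63, 95% interval 1.53 to 1.72). Tlr7 was at 21.00 and 63.9 CPM (log2 ratio 1.61, 95% interval 1.51 to 1.699) and Tlr8 at 5.19 and 13.6 CPM (log2 ratio 1.39, 95% interval 1.200 to 1.58). In the other direction, Tlr3 was at 13.4 and 3.85 CPM (log2 ratio -1.803, 95% interval -1.996 to -1.61). The other receptors stayed within 2-fold, with log2 ratios of -0.60 for Tlr4, -0.16 for Tlr5, 0.34 for Tlr1, 0.39 for Tlr9 and 0.76 for Tlr6. The median log2 ratio was 0.58 over the receptors and -0.32 over all genes tested. In a whole library, fewer cells of a type and less RNA per cell cannot be told apart.

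Over the whole synovium, 6 of the 10 receptors were at least 2-fold higher in TNF+ and 2 at least 2-fold lower, beside 11.8% and 21.9% of 19255 genes. Tlr2 had the largest ratio of the 10, at 21.9 and 173 CPM (log2 ratio 2.98, 95% interval 2.903 to 3.06). The genes of its partner Tlr6 (1.08 and 4.42 CPM, log2 ratio 2.04), of Tlr13 (3.43 and 13.9 CPM, 2.03) and of Tlr7 (3.62 and 12.4 CPM, 1.78) were also higher. The lipopolysaccharide receptor Tlr4 was lower, at 55.3 and 17.97 CPM (log2 ratio -1.62, 95% interval -1.75 to -1.496), and so was Tlr3, at 11.4 and 4.63 CPM (log2 ratio -1.31, 95% interval -1.56 to -1.06). Tlr5 and Tlr8 passed 2-fold on few molecules, 30 and 36 UMIs and 94 and 94 UMIs. Tlr1 and Tlr9 stayed within 2-fold on 53 and 40 UMIs and 25 and 14 UMIs. The median log2 ratio was 1.34 over the receptors and -0.17 over all genes tested.

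To set the share of UMIs in each class apart from the level in it, the whole-tissue CPM was recomputed over 18 lung and 13 synovial classes of cells. This was done either with TNF- levels and the TNF+ share of UMIs in each class or with TNF+ levels and the TNF- shares. These shares, called makeup here, hold both the number of cells and the UMIs per cell, which were not told apart. For lung Tlr7 the observed log2 ratio was 1.61, the value from makeup alone 1.97 and that from levels alone -0.02. Lung Tlr13 gave 1.63, 2.04 and -0.12 in the same order, and lung Tlr8 gave 1.39, 1.73 and 0.22. For these 3 endosomal receptors the value from makeup alone was thus above the observed whole-lung ratio. Lung Tlr2 differed from them, with 1.83 observed, 0.74 from makeup and 1.24 from levels. In synovium the order for Tlr2 was the other way round, with 2.98 observed, 2.67 from makeup and 0.22 from levels. Synovial Tlr3 gave -1.31, -0.25 and -1.15, and synovial Tlr4 gave -1.62, -0.77 and -0.51. For Tlr4 in lung both recomputed values were near 0 (0.02 and -0.02) beside -0.60 observed, so neither swap alone gave the observed value.

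**Figure D2:**
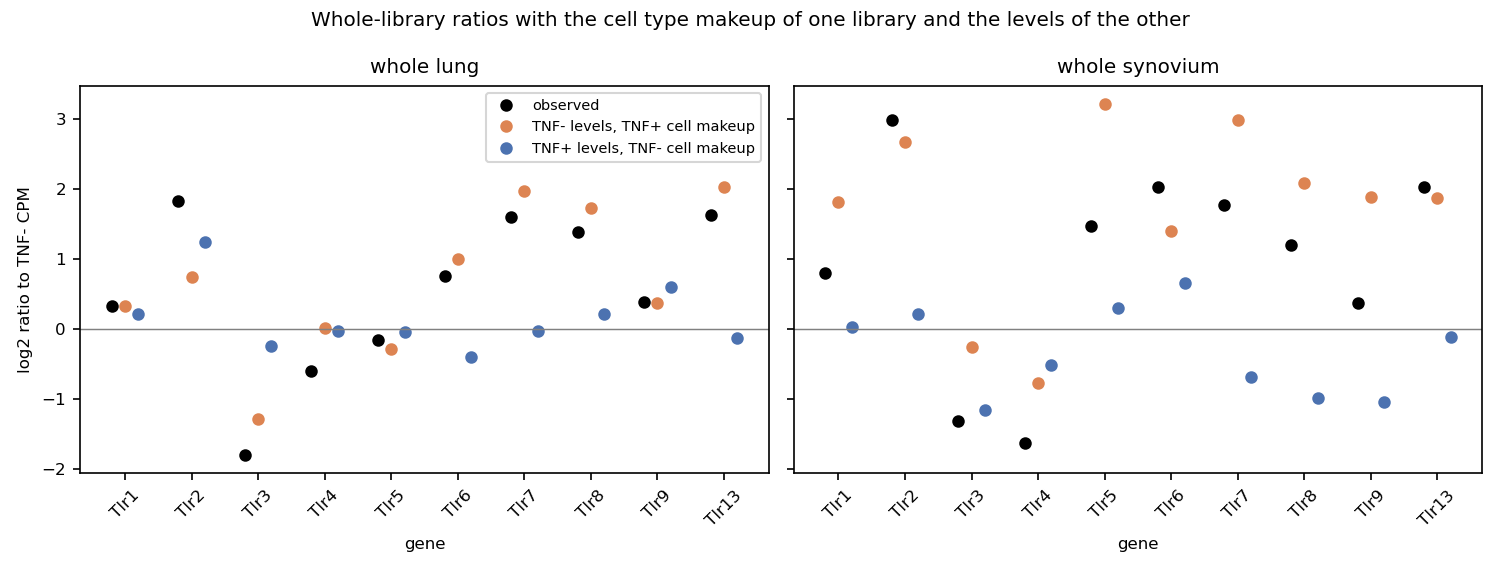
Log2 ratio of TNF+ over TNF- in CPM for each receptor in whole lung and whole synovium, as observed, with TNF- levels and TNF+ makeup, and with TNF+ levels and TNF- makeup. Points of lung Tlr7 and Tlr13 with TNF+ makeup lie at 1.97 and 2.04, above the observed points, and lung Tlr2 with TNF+ levels lies at 1.24.

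Within myeloid cells the ratios were smaller for most receptors. Among lung myeloid cells (1059 TNF- and 4904 TNF+), 0 of the 10 receptors were at least 2-fold higher in TNF+ and 2 were lower, Tlr3 and Tlr4, beside 4.30% and 16.8% of 15521 genes. Tlr4 was at 77.97 and 25.2 CPM (log2 ratio -1.63, 95% interval -1.76 to -1.498). Tlr2 was at 93.6 and 125 CPM, a log2 ratio of 0.41, and Tlr7 and Tlr13 lay at 0.20 and 0.06. Among synovial myeloid cells (627 and 1225), Tlr2 and Tlr6 were at least 2-fold higher and Tlr3 and Tlr9 at least 2-fold lower, beside 9.29% and 20% of 13095 genes. Synovial myeloid Tlr2 was at 122 and 327 CPM (log2 ratio 1.42, 95% interval 1.33 to 1.51), Tlr6 at 3.86 and 8.498 CPM (log2 ratio 1.14, 95% interval 0.62 to 1.69) and Tlr3 at 13.97 and 1.87 CPM (log2 ratio -2.902, 95% interval -3.51 to -2.33). Tlr9 rested on 23 and 13 UMIs. The median log2 ratio over the receptors was -0.14 in lung and 0.04 in synovial myeloid cells, beside -0.10 and -0.14 over all genes. The myeloid class itself differed in makeup. Nonclassical monocytes were 289 of 1059 TNF- and 2626 of 4904 TNF+ lung myeloid cells, and neutrophils 302 and 178. Of the synovial ones, macrophages were 91 of 627 and 894 of 1225, and conventional dendritic cells 369 and 86. The part of this makeup in ratios over all myeloid cells, here and below, was not tested.

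Within the single myeloid types, between 0 and 4 of the receptors that had 20 or more UMIs, called tested here, passed 2-fold. Neutrophils had 2 higher and 1 lower of 7 receptors tested (all genes 6.06% and 11.8%), with Tlr2 and Tlr7 higher and Tlr6 lower, Tlr7 on 3 and 19 UMIs. Lung macrophages had 2 higher and 2 lower of 9 receptors tested (all genes 8.45% and 8.21%), with Tlr2 and Tlr6 higher and Tlr4 and Tlr7 lower, of which Tlr6 rested on 3 and 44 UMIs with an interval that spanned 0 (log2 ratio 1.47, 95% interval -0.17 to 3.802) and lay at -0.10 with no filter on cells. Classical monocytes had 2 higher and 1 lower of 8 receptors tested (all genes 7.17% and 8.95%), with Tlr2 and Tlr5 higher and Tlr4 lower, where the Tlr5 ratio had an interval that spanned 0 (2 and 23 UMIs, log2 ratio 1.34, 95% interval -0.68 to 4.47). Lung nonclassical monocytes had 0 higher and 1 lower of 8 receptors tested (all genes 5.79% and 8.36%), with Tlr1 lower. Alveolar macrophages had 0 higher and 0 lower of 5 receptors tested (all genes 4.51% and 6%). In synovium, macrophages had 0 higher and 3 lower of 9 receptors tested (all genes 10.3% and 21.6%), with Tlr3, Tlr5 and Tlr7 lower. The Tlr3 call of these macrophages rested on 6 and 29 UMIs with an interval of -2.56 to 0.29, and passed 2-fold in 0 of 5 alternatives on cells and clusters. Synovial nonclassical monocytes had 0 higher and 1 lower of 6 receptors tested (all genes 6.50% and 10.5%), with Tlr8 lower. Lung conventional dendritic cells had 2 higher and 0 lower of 6 receptors tested (all genes 6.05% and 5.91%), with Tlr1 and Tlr2 higher, Tlr1 on 4 and 27 UMIs. Those of synovium had 0 higher and 2 lower of 7 receptors tested (all genes 6.61% and 16%), with Tlr3 and Tlr7 lower, Tlr7 on 19 and 1 UMIs. Of these 19 calls, 8 held in every one of 5 alternatives (no filter on cells, a stricter one, doublets removed, each library clustered by itself and finer clusters) and 11 did not hold in all. Those that held were Tlr2 in lung neutrophils, macrophages, classical monocytes and dendritic cells, Tlr6 in lung neutrophils, Tlr1 in lung and Tlr8 in synovial nonclassical monocytes, and Tlr3 in synovial dendritic cells. A call also counted as not holding where fewer than 20 UMIs remained, whatever the ratio.

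Tlr2, the lipoprotein receptor, was the receptor with the most UMIs over TNF+ lung and TNF+ synovium. In lung it was highest in alveolar macrophages, at 281 CPM (95% interval 255 to 309) in TNF- and 352 CPM (95% interval 315 to 391) in TNF+, a log2 ratio of 0.32. In TNF- lung the next types were neutrophils, macrophages and classical monocytes, whose levels of 89.4, 85.5 and 77.5 CPM overlapped in their intervals. These 3 types were higher in TNF+. Neutrophils were at 89.4 and 232 CPM (log2 ratio 1.38, 95% interval 1.08 to 1.68). Macrophages were at 85.5 and 251 CPM (log2 ratio 1.56, 95% interval 1.22 to 1.91), and within the deeper of their 2 clusters, cluster 12 with 64 TNF- and 244 TNF+ cells, at 92.04 and 302 CPM. Classical monocytes were at 77.5 and 171 CPM (log2 ratio 1.14, 95% interval 0.91 to 1.39). Nonclassical monocytes, which had less of it, were at 46.4 and 83.1 CPM (log2 ratio 0.84). The alveolar macrophage ratio was small and took the other sign with a stricter cell filter (-0.26) or finer clusters (-0.16), so its direction was not settled. The cells behind the name changed with these settings, from 105 TNF- and 72 TNF+ as reported to 122 and 481 with the stricter filter, 155 and 827 with finer clusters and 576 and 1486 with no filter, and the lung macrophages changed from 117 and 1210 to 63 and 202, 77 and 764 and 87 and 984. With doublets removed, a shallow cluster of 21 TNF- and 831 TNF+ cells named macrophage had 9 macrophage and 7 alveolar macrophage markers. With the stricter filter, a shallow cluster led by Ccl8, Spp1 and Marco (35 and 428 cells) was named alveolar macrophage. Values of both lung macrophage types hold for the cells named here.

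Low Tlr2 levels in other lung cells also stood higher in TNF+. Endothelial cells were at 5.32 and 32.03 CPM (log2 ratio 2.59, 95% interval 2.04 to 3.13), fibroblasts at 7.14 and 42.9 CPM (16 and 15 UMIs) and B cells at 4.77 and 10.1 CPM. T, NK or innate lymphoid cells were at 0.653 and 8.32 CPM (7 and 122 UMIs). The summed level of 14 macrophage markers moved with it, from 52.5 CPM in TNF- to 447 CPM in TNF+ T, NK or innate lymphoid cells, 248 to 1234 CPM in B cells, 275 to 943 CPM in endothelial cells and 348 to 1135 CPM in neutrophils. In fibroblasts the same sum was 2435 and 1859 CPM. The part of macrophage RNA in these Tlr2 values was not tested. In endothelial cluster 16, which held 258 TNF- and 25 TNF+ cells, Tlr2 was at 7.08 and 34.8 CPM (14 and 10 UMIs).

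In synovium, Tlr2 ranked macrophages, then nonclassical monocytes, then conventional dendritic cells in both libraries among types of at least 50 cells, and the fewer neutrophils, at 292 and 117 CPM, lay between these first 2, with intervals that overlapped those of the macrophages in TNF- and of the monocytes in TNF+. Macrophages were at 306 CPM (95% interval 275 to 339) in TNF- and 386 CPM (95% interval 376 to 397) in TNF+ (log2 ratio 0.34). Those cells were few in TNF- (91) and many in TNF+ (894), and the 2 libraries filled different clusters. Cluster 4, led by Cxcl2, Spp1 and Lyz2, held 7 TNF- and 734 TNF+ cells, and cluster 21, led by Retnla and C1qa, held 77 and 33. With finer clusters, 66 and 735 synovial cells were named classical monocytes and 78 and 189 macrophages. Values of synovial macrophages hold for the cells named here. Nonclassical monocytes were lower in TNF+, at 203 and 105 CPM (log2 ratio -0.94, 95% interval -1.21 to -0.68). Conventional dendritic cells were at 64.7 and 34.7 CPM (log2 ratio -0.90, 95% interval -1.37 to -0.46), but with each library clustered by itself, which put 389 and 256 cells in this type, the ratio was 1.76. The whole-synovium Tlr2 ratio of 2.98 therefore stood beside ratios between -0.94 and 0.34 in these 3 myeloid types. Outside them, fibroblasts were at 7.59 and 18.8 CPM (log2 ratio 1.31, 95% interval 0.79 to 1.79) and endothelial cells at 2.02 and 11.00 CPM (7 and 46 UMIs), beside macrophage marker sums of 741 and 1156 CPM in fibroblasts and 462 and 616 CPM in endothelial cells.

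**Figure D3:**
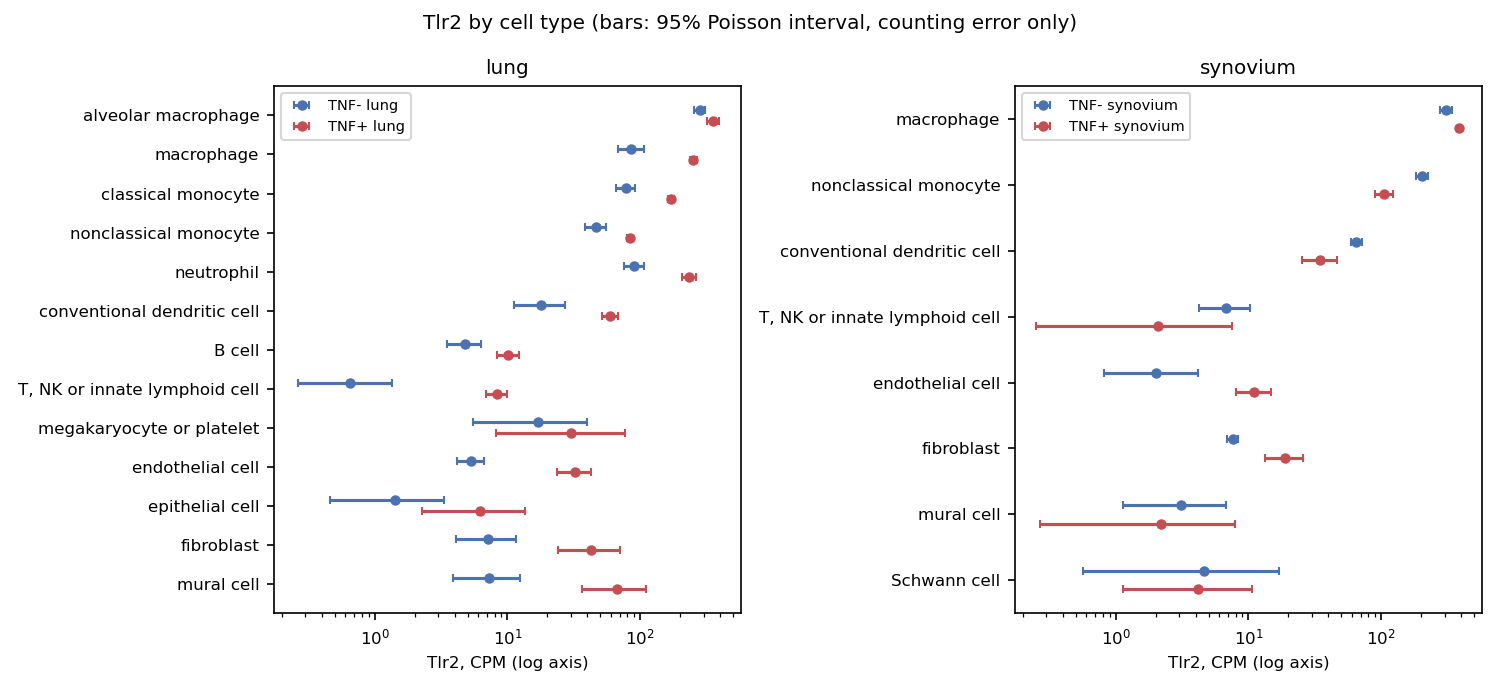
Tlr2 level in CPM (log axis) in each cell type of lung and synovium, with TNF- and TNF+ points and exact 95% Poisson bars. TNF+ points lie above TNF- points in lung neutrophils (232 and 89.4 CPM) and macrophages (251 and 85.5 CPM), and below them in synovial nonclassical monocytes (105 and 203 CPM).

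The partner genes of Tlr2 had other patterns. Tlr1, which binds triacylated lipopeptides with Tlr2, was captured in lung B cells at 28.7 and 35.5 CPM (log2 ratio 0.31) and in macrophages at 25.5 and 41.96 CPM (0.72), with intervals of the 2 types that overlapped in each library. T, NK or innate lymphoid cells were at 13.5 and 12.3 CPM and classical monocytes at 16.5 and 14.6 CPM. Lung nonclassical monocytes were lower in TNF+, at 7.53 and 2.67 CPM (log2 ratio -1.497, 95% interval -2.24 to -0.68). Synovial Tlr1 was sparse, with 53 UMIs in TNF- and 40 in TNF+ over the whole library. Tlr6, which binds diacylated lipopeptides with Tlr2, was highest in lung neutrophils, where it was lower in TNF+, at 50.3 and 18.2 CPM (log2 ratio -1.47, 95% interval -2.22 to -0.77). Tlr2 and Tlr6 thus differed in opposite directions in the same neutrophils. Classical monocytes (17.4 and 11.8 CPM) and nonclassical monocytes (14.3 and 12.03 CPM) followed and did not differ from each other beyond their intervals. Synovial Tlr6 was at 8.28 and 12.9 CPM in nonclassical monocytes (15 and 22 UMIs) and 5.18 and 7.81 CPM in macrophages (6 and 105 UMIs).

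Tlr4, the lipopolysaccharide receptor, was lower in TNF+ in the lung myeloid types that carried most of it. In TNF- lung, alveolar macrophages were at 194 CPM (95% interval 173 to 218) and neutrophils at 160.3 CPM (95% interval 141 to 182), the highest levels of the library and with overlapping intervals. In TNF+ they were at 147 CPM (95% interval 124 to 173) and 90.1 CPM (95% interval 73.99 to 109). The log2 ratio was -0.40 in alveolar macrophages, -0.83 in neutrophils, -0.66 in nonclassical monocytes, -1.15 in classical monocytes and -1.55 in macrophages. Lung macrophages were at 84.4 and 28.7 CPM (log2 ratio -1.55, 95% interval -1.97 to -1.13), in the deeper cluster 12 at 90.8 and 31.6 CPM, and with no filter on cells at a ratio of -0.86. All 5 ratios were negative while those of Tlr2 in the same types were positive, although the Tlr2 ratio of alveolar macrophages took both signs over the alternatives. Lung endothelial cells were at 29.04 and 40.5 CPM (log2 ratio 0.48, 95% interval 0.07 to 0.87) and fibroblasts at 13.4 and 42.9 CPM (30 and 15 UMIs), and their intervals overlapped in TNF+.

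In synovium Tlr4 was highest in fibroblasts among types of at least 50 cells, overlapping in TNF+ with epithelial cells, while the 26 and 23 neutrophils were higher in TNF+ and overlapped with them in TNF- (109.6 and 171 CPM). Fibroblasts were at 73.6 CPM (95% interval 71.2 to 76.00) in TNF- and 52.1 CPM (95% interval 42.7 to 62.9) in TNF+ (log2 ratio -0.50, 95% interval -0.79 to -0.22), from 3320 and 227 cells. The levels varied between fibroblast clusters. The cluster led by Pi16, a marker of perivascular and adventitial fibroblasts, was at 104 and 204 CPM (750 and 19 cells). The cluster led by Fmod was at 33.9 and 17.2 CPM (363 and 80 cells), and that led by Cxcl14 at 71.3 and 59.5 CPM (1286 and 54 cells). With each library clustered by itself, which put 3303 and 425 cells in this type, the fibroblast ratio was -1.56. Synovial fibroblast values, here and for Tlr2 and Tlr3, leave out an unnamed cluster led by Saa3 and Mmp13, nearly all from TNF+. With a stricter filter on cells, such a cluster (3 TNF- and 195 TNF+ cells) matched fibroblasts best, on 10 markers, yet stayed unnamed. Synovial macrophages were at 29.4 and 17.4 CPM (log2 ratio -0.75, 95% interval -1.28 to -0.19) and mural cells at 19.2 and 5.53 CPM (37 and 5 UMIs). The TNF+ library also held 179 epithelial cells with Tlr4 at 37.5 CPM, a type of which TNF- held 3.

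The co-receptors of Tlr4 did not follow it. Cd14, which hands lipopolysaccharide to the Tlr4 complex, was at 16.1 and 59.5 CPM over the whole lung (log2 ratio 1.89) and 105 and 1426 CPM over the whole synovium (3.77). In lung neutrophils, where Tlr4 was lower, Cd14 was at 100.01 and 518 CPM (log2 ratio 2.37, 95% interval 2.11 to 2.64), beside a macrophage marker sum, without Cd14, of 348 and 1135 CPM in the same cells, whose part was not tested, and in lung nonclassical monocytes at 8.72 and 40.8 CPM (2.23). Lung macrophages differed from these, with 444 and 316 CPM (-0.49). Synovial myeloid cells had 747 and 2786 CPM (log2 ratio 1.899, 95% interval 1.86 to 1.93). Ly96, the subunit that binds lipid A, was at 28.2 and 34.6 CPM in lung and 20.3 and 53.6 CPM in synovial myeloid cells (log2 ratios 0.29 and 1.402). The related pair Cd180 and Ly86, a receptor without a TIR domain and its partner, was lower in TNF+ synovial myeloid cells, Cd180 at 80.9 and 25.9 CPM (log2 ratio -1.65, 95% interval -1.82 to -1.48) and Ly86 at 249 and 70.4 CPM (log2 ratio -1.82, 95% interval -1.92 to -1.72). Ly86 was also lower in lung nonclassical monocytes (-1.45), while Cd180 there was at 295 and 216 CPM and in lung B cells at 187 and 219 CPM.

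Tlr5, the flagellin receptor, was sparse. Over the whole lung it had 67 and 94 UMIs and over the whole synovium 30 and 36 UMIs. In TNF- lung its levels in neutrophils, alveolar macrophages, epithelial cells and macrophages lay between 6.66 and 7.95 CPM, with overlapping intervals. Alveolar macrophages were at 7.79 and 3.104 CPM (12 and 3 UMIs, too few to be counted), and with no filter on cells, over 576 and 1486 of them, at 10.2 and 1.095 CPM (130 and 28 UMIs, log2 ratio -3.22, 95% interval -3.86 to -2.62). In synovial macrophages it was at 8.64 and 2.01 CPM (log2 ratio -2.105, 95% interval -3.197 to -0.89, 10 and 27 UMIs), although over all synovial myeloid cells, where macrophages were a larger share in TNF+, it was at 1.58 and 1.87 CPM.

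Tlr3, the receptor of double-stranded RNA, had its highest levels in dendritic cells, endothelium and fibroblasts rather than monocytes. In TNF- lung, conventional dendritic cells were at 67.7 CPM (95% interval 53.9 to 83.9) and endothelial cells at 38.4 CPM (95% interval 35.2 to 41.8), intervals that did not overlap. In TNF+ lung they were at 35.8 CPM (95% interval 30.04 to 42.4) and 28.8 CPM (95% interval 20.9 to 38.6), intervals that did. The log2 ratio was -0.92 in dendritic cells (95% interval -1.32 to -0.51) and -0.42 in endothelial cells (-0.89 to 0.03). Lung fibroblasts had 17 and 8 UMIs. In synovium, endothelial cells were at 21.7 and 17.9 CPM (log2 ratio -0.27) and fibroblasts at 12.1 and 6.27 CPM (log2 ratio -0.94, 95% interval -1.86 to -0.16, 606 and 13 UMIs). In TNF- synovium, the levels of endothelial cells, dendritic cells, Schwann cells and fibroblasts (21.7, 19.4, 18.6 and 12.1 CPM) overlapped between neighbours in that order.

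Synovial conventional dendritic cells had 134 Tlr3 UMIs in 369 TNF- cells and 0 in 86 TNF+ cells, which allows up to 2.26 CPM in TNF+. TNF+ was at least 8.58-fold lower, against 3 UMIs over the group. The Tlr3 of dendritic cells came from those with a UMI of Xcr1 or Clec9a, which mark the cross-presenting cDC1 subset. In TNF- lung, 38 such cells held 81 of the Tlr3 UMIs (125 CPM) and the other 36 cells 2. In TNF+ lung, 93 such cells held 133 (86.8 CPM) and the other 133 held 2. In TNF- synovium, 109 such cells held 130 (56.8 CPM) and the other 260 held 4. In TNF+ synovium 22 such cells held 0, which allows up to 7.86 CPM, and the other 64 held 0. A cell needs a UMI of a marker to be placed here, so deeper cells are placed more easily.

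Other cDC1 markers in the same TNF+ synovial dendritic cells were not at 0. Xcr1 was at 35.9 and 30.1 CPM (log2 ratio -0.25), and Cadm1 at 91.2 and 123 CPM (0.43). Clec9a (-1.49), Wdfy4 (-1.25), Irf8 (-1.17) and Naaa (-1.58) were lower. Summed over 9 cDC1 markers, of which Snx22 was at 0 in TNF+, the level was 902 and 453 CPM. The part of the lower marker sum in the Tlr3 value was not tested. Tlr11, a receptor of protozoan profilin, stood beside Tlr3 in these cells. Cells with a UMI of Xcr1 or Clec9a held 15 and 68 Tlr11 UMIs in lung and 48 and 0 in synovium. The dendritic cells without one held 1 and 31 in lung and 15 and 1 in synovium. In TNF+ lung and TNF- synovium, Tlr11 was thus less confined to the cells with such a UMI than Tlr3. Over all synovial myeloid cells Tlr11 had 65 and 1 UMIs.

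**Figure D4:**
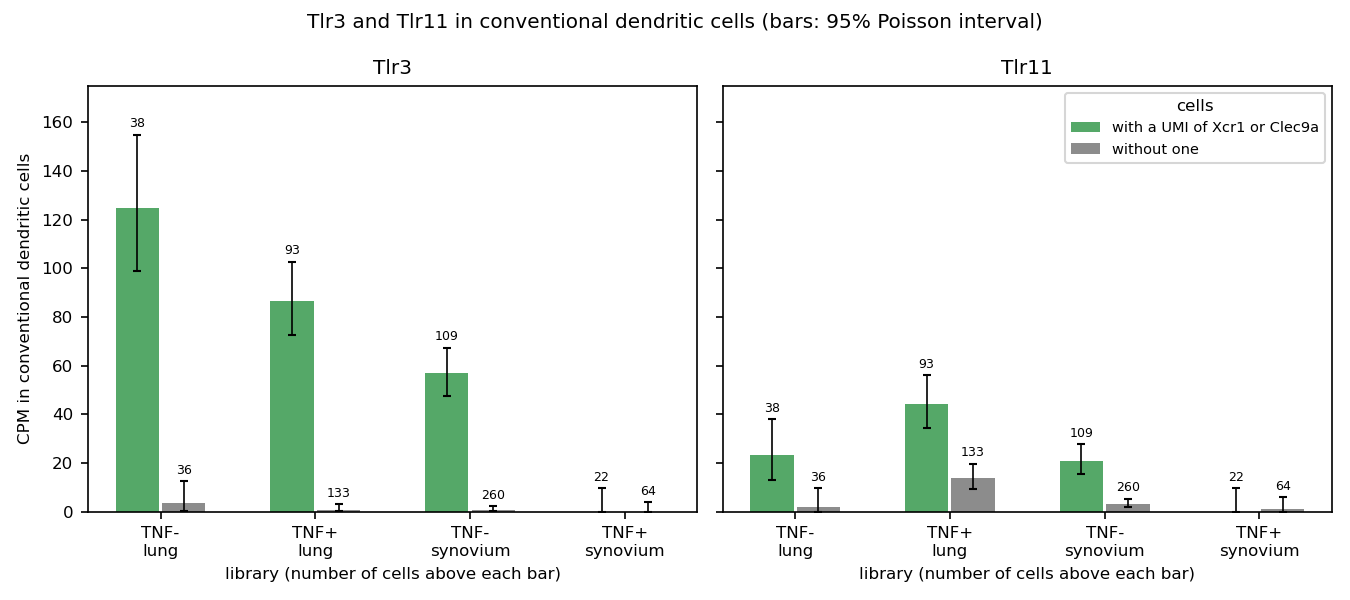
Level of Tlr3 and of Tlr11 in CPM (bars, with exact 95% Poisson error bars) in conventional dendritic cells with and without a UMI of Xcr1 or Clec9a in the 4 libraries, with the number of cells above each bar. Tlr3 stands at 125, 86.8 and 56.8 CPM in cells with such a UMI in the first 3 libraries shown (lung, then TNF- synovium), and at 0 in TNF+ synovium.

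Tlr7 and Tlr13 had their highest levels in nonclassical monocytes, the patrolling monocytes of the vessel wall, among types of at least 50 cells in all 4 libraries. Tlr7 there was at 189.9 CPM (95% interval 173 to 208) in TNF- and 147 CPM (95% interval 142 to 151) in TNF+ lung (log2 ratio -0.37, 95% interval -0.51 to -0.23), and at 91.6 CPM (95% interval 78.2 to 107) and 70.2 CPM (95% interval 58.2 to 83.9) in synovium (log2 ratio -0.38). Tlr13 there was at 207 CPM (95% interval 189.97 to 226) and 149 CPM (95% interval 144 to 154) in lung (log2 ratio -0.48, 95% interval -0.61 to -0.34), and at 93.3 CPM (95% interval 79.7 to 108) and 78.9 CPM (95% interval 66.2 to 93.4) in synovium (-0.24). Per cell type both receptors were therefore lower in TNF+ lung monocytes, while over the whole lung they were higher. The lung monocytes filled different clusters, since cluster 1 held 31 TNF- and 2602 TNF+ cells and cluster 17 held 258 and 24. Tlr7 was at 157 and 147 CPM in cluster 1 and 193 and 109 CPM in cluster 17, and Tlr13 at 239 and 149 CPM and 204 and 159 CPM.

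Tlr7 was also lower in TNF+ lung macrophages, lung classical monocytes and synovial macrophages, but not in every cluster or alternative. Lung macrophages were at 106 and 46.4 CPM (log2 ratio -1.19, 95% interval -1.54 to -0.82), and in cluster 12 at 111 and 49.4 CPM. That ratio passed 2-fold in 3 of 5 alternatives on cells and clusters, and not with no filter or finer clusters. Classical monocytes were at 108 and 77.7 CPM (-0.48). Alveolar macrophages (58.5 and 70.4 CPM) and B cells (14.9 and 19.5 CPM), which use Tlr7 in antibody responses, were not lower. In synovial macrophages Tlr7 was at 57.9 and 20.5 CPM (log2 ratio -1.501, 95% interval -1.89 to -1.09). The clusters behind that value differed. In cluster 21 (Retnla, C1qa), which both libraries filled, Tlr7 was at 58.5 and 77.8 CPM, and in cluster 4 (Cxcl2, Spp1), which TNF+ filled, at 57.2 and 20.1 CPM. With no filter on cells, which left 76 and 187 cells under this name, the ratio was -0.52. The synovial macrophage call held in 2 of 5 alternatives.

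Tlr13 was the endosomal receptor of lung neutrophils, at 127 and 118 CPM (log2 ratio -0.11, 95% interval -0.43 to 0.21), where Tlr7 had 3 and 19 UMIs. Classical monocytes were at 110.4 and 83.00 CPM and did not differ from neutrophils beyond their intervals in TNF- lung. Alveolar macrophages were at 33.8 and 51.7 CPM (log2 ratio 0.62, 95% interval 0.03 to 1.204), and synovial macrophages at 17.3 and 21.4 CPM (log2 ratio 0.31). Tlr8 was highest in alveolar macrophages in lung, at 53.3 and 100.4 CPM (log2 ratio 0.91, 95% interval 0.47 to 1.36), a ratio that lay at 0.14 without a filter on cells, 0.12 with a stricter one and 0.07 with finer clusters. In synovium Tlr8 was highest in nonclassical monocytes, where it was lower in TNF+, at 33.7 and 14.03 CPM (log2 ratio -1.26, 95% interval -2.01 to -0.56). Tlr9, the CpG DNA receptor, was captured least of the endosomal group, with 36 and 74 UMIs over the whole lung and 25 and 14 UMIs over the whole synovium. Its highest level was in B cells in lung (2.901 and 3.48 CPM, 28 and 39 UMIs) and in conventional dendritic cells in synovium (2.61 and 1.51 CPM, 18 and 2 UMIs). Synovial macrophages were at 2.59 and 0.818 CPM (3 and 11 UMIs), too few UMIs to order these synovial types.

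The endosomal genes Tlr3, Tlr7, Tlr8, Tlr9 and Tlr13 made up a different share of receptor UMIs in each type. It was highest in lung nonclassical monocytes, 80.5% (78.3 to 82.5) in TNF- and 72.6% (71.8 to 73.4) in TNF+ (exact binomial 95% intervals). Lung macrophages stood at 49.3% (44.1 to 54.6) in TNF- and 25.7% (23.8 to 27.5) in TNF+, classical monocytes at 62.8% (59.3 to 66.1) and 45.6% (43.98 to 47.2), and lung endothelial cells at 53.6% (50.6 to 56.6) and 35.2% (28.2 to 42.7). In these types the endosomal share was lower in TNF+. In endothelial cells the endosomal level was the same (41.2 and 41.2 CPM) and the surface level was at 35.7 and 75.8 CPM, beside the macrophage marker sums of 275 and 943 CPM, whose part was not tested. In lung macrophages the endosomal level was at 199.9 and 118 CPM and the surface level at 205 and 341 CPM. Most TNF+ lung macrophages lay in a shallow cluster, and a cluster of such cells was named alveolar macrophage with the stricter filter. Neutrophils stood at 30.9% (27.5 to 34.5) and 29.3% (25.7 to 33.1) and B cells at 30.9% (27.4 to 34.5) and 30.2% (27.3 to 33.1), with overlapping intervals, and alveolar macrophages were at 23.4% (20.8 to 26.2) and 31.3% (27.9 to 34.8). Synovial macrophages stood at 20.4% (17.02 to 24.2) and 10.7% (9.94 to 11.5), and synovial nonclassical monocytes at 47.96% (44.5 to 51.4) and 55.5% (51.1 to 59.9). The TNF- and TNF+ synovial macrophages filled different clusters. With finer clusters, 66 and 735 synovial cells were named classical monocytes and 78 and 189 macrophages, so unlike cells may be compared. Over all synovial myeloid cells the share was 33.4% in TNF- and 14.2% in TNF+.

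**Figure D5:**
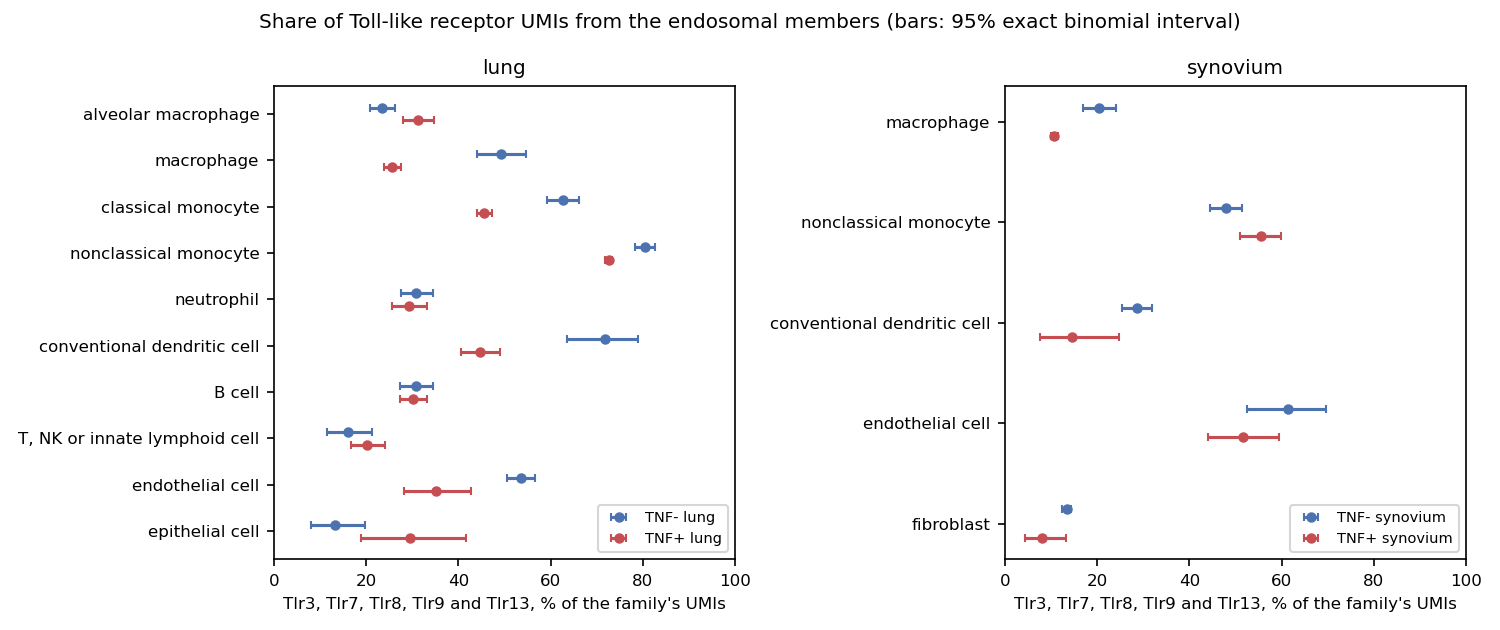
Percent of the UMIs of the 10 receptors that came from the endosomal genes Tlr3, Tlr7, Tlr8, Tlr9 and Tlr13 in each cell type, with exact binomial 95% bars, for TNF- and TNF+ libraries. The lung macrophage points lie at 49.3% and 25.7%, and the synovial macrophage points at 20.4% and 10.7%. The cells under both macrophage names changed with the filter and the clustering.

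Unc93b1, the chaperone that carries nucleic acid receptors to endosomes, was at 288 and 305 CPM in lung and 218 and 189 CPM in synovial myeloid cells (log2 ratios 0.08 and -0.21). It was highest in lung macrophages (582 and 702 CPM) and lower in TNF+ synovial nonclassical monocytes (267 and 128 CPM, -1.06). Of the genes for folding and trafficking, 3 higher and 0 lower of 11 tested passed 2-fold in synovial myeloid cells, beside 9.29% and 20% of all genes, with a median log2 ratio of -0.04. The protease Ctsl, which cleaves endosomal receptors, was among them at 70.6 and 586 CPM (3.05). In lung myeloid cells the count was 0 higher and 0 lower of 11, beside 4.30% and 16.8% of all genes, with a median of -0.16.

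The counts of signalling genes stand beside 4.30% and 16.8% of all genes at least 2-fold higher and lower in lung and 9.29% and 20% in synovial myeloid cells. Of the adaptors, 0 higher and 0 lower of 5 tested in lung and 0 higher and 1 lower of 5 in synovial myeloid cells passed, the latter being Myd88 at 63.99 and 31.2 CPM (log2 ratio -1.04, 95% interval -1.21 to -0.87). Ticam1 had log2 ratios of -0.07 in lung and -0.93 in synovial myeloid cells. Of the kinases and ligases, 1 higher and 1 lower of 18 passed in lung and 3 higher and 0 lower of 18 in synovial myeloid cells, with medians of 0.11 and -0.19. Ikbke, which phosphorylates interferon regulatory factors, was higher in both, at 12.4 and 114 CPM in lung (3.200) and 3.76 and 17.4 CPM in synovium (2.21). Of the transcription factors, 0 higher and 3 lower of 12 passed in lung and 0 higher and 6 lower of 12 in synovial myeloid cells. Irf8 (-1.62) and the NF-κB subunit gene Rel (-1.88) were among those lower in synovium. The myeloid classes differed in makeup between TNF- and TNF+, and its part in these ratios was not tested.

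Of the pathway's inhibitors, 5 higher and 2 lower of 15 tested passed 2-fold in lung myeloid cells (all genes 4.30% and 16.8%), with a median of -0.00011, and in synovial myeloid cells 2 higher and 7 lower of 15 (all genes 9.29% and 20%), with a median of -0.66. Irak3 (IRAK-M), a kinase homolog that holds back Myd88 signalling, was at 58.5 and 146 CPM in lung myeloid cells (log2 ratio 1.32, 95% interval 1.197 to 1.44). It was higher in lung neutrophils (62.9 and 200.1 CPM, 1.67), macrophages (27.8 and 72.4 CPM, 1.38) and classical monocytes (63.4 and 155 CPM, 1.28). Tnip1 and Tnip3, which restrain NF-κB, had log2 ratios of 2.03 and 1.91 there. Il1rl1, the IL-33 receptor gene listed among the inhibitors, was lower in synovial myeloid cells (-4.64).

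Of the genes that the pathway induces, 1 higher and 7 lower of 14 tested passed 2-fold in lung myeloid cells (all genes 4.30% and 16.8%), with a median log2 ratio of -1.13. The anti-inflammatory cytokine Il10 was higher, at 5.85 and 122 CPM (4.38), and the cytokine Il6 (-3.77) and the prostaglandin synthase Ptgs2 (-3.88) were lower. These values are over all lung myeloid cells, of which nonclassical monocytes were 289 of 1059 in TNF- and 2626 of 4904 in TNF+. Neutrophils were 302 and 178 of them. The part of this makeup in the values was not tested. In synovial myeloid cells 5 higher and 5 lower of 15 passed (all genes 9.29% and 20%), with a median of 0.0042. The neutrophil chemokine Cxcl2 was at 1003 and 9171 CPM (3.19), and the interferon-induced chemokine Cxcl10 was lower (-3.09). Beside the same shares of all genes, 2 higher and 4 lower of 11 endogenous ligands passed in lung and 3 higher and 1 lower of 9 in synovial myeloid cells. The acute phase gene Saa3 had a log2 ratio of 6.77 in the latter, at 0.594 and 64.7 CPM (6 and 1073 UMIs). Over the whole synovium it was higher, at 0.827 and 488 CPM, and an unnamed cluster outside the myeloid class was led by it. The part of RNA from other cells in the myeloid value was not tested. Of the co-receptors and ligand carriers, 0 higher and 0 lower of 8 passed in lung and 2 higher and 3 lower of 8 in synovial myeloid cells.

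Across 46 profiles, each a cell type in 1 library, some receptors that were captured mainly in myeloid cells of lung had like patterns. Pearson's r of log2(CPM + 1) was 0.85 between Tlr6 and Tlr13, 0.84 between Tlr8 and Tlr13, 0.81 between Tlr7 and Tlr13 and 0.80 between Tlr7 and Tlr8. For Tlr3 with the other receptors r ranged from -0.36 to 0.27. Among 15975 genes, the pattern most like Tlr13 was that of the Fc receptor gene Fcgr4 (0.95). The closest to Tlr7 was Lair1 (0.90), an inhibitory receptor of leukocytes, to Tlr2 the C-type lectin Clec4a2 (0.88), and to Tlr6 Cd300lb (0.87). Tlr4 had the least close neighbour, Mgst1 (0.69), followed upward by Tlr9 (Gm20513, 0.77), Tlr5 (C5ar2, 0.77) and Tlr3 (Arpin, 0.79). Tlr1 was closest to Ms4a6b (0.81) and Tlr8 to C130050O18Rik (0.90). The profiles share libraries and the same cell types in TNF- and TNF+ mice, so these values describe the data and are not a test.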

How the data were processed

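Single-cell RNA-sequencing (Chromium 3′) was done on 4 libraries, 1 per group. The authors ran Cell Ranger 7.0.1 at its default settings on the mm10 reference, which counts introns, and deposited raw UMI counts per gene and cell barcode with no normalization. From these counts, the study's filter on cells was applied, which keeps those with at least 200 genes, no more than 5000, and up to 20% of UMIs from mitochondria. The libraries of a tissue were clustered together without integration (scanpy 1.11.5, 2000 variable genes, 30 components, 20 neighbours, Leiden resolution 0.8). A cluster was named when at least 4 markers of a type were at least 2-fold higher in it and present in 10% of its cells. These thresholds were set with the data in view. Doublets were kept, with their removal as an alternative.

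UMIs were summed per library and type and given as CPM. With 1 library per group no test was possible, so a gene counted as higher or lower when the CPM differed at least 2-fold and both libraries together held at least 20 UMIs. Against 0 UMIs, a floor of 3 UMIs was used. Intervals (scipy 1.17.1) cover counting error only. Totals of 33047125 to 84398714 UMIs per library set the precision. The intervals and counts were also run on simulated counts that held counting error only. With no spread between mice or cells in them, these counts cannot show how the calls would fare in other mice.

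The receptors and the gene lists were chosen with earlier results of these data known. Named pathway genes were Cd14, Ly96, Cd180, Ly86, Unc93b1, Myd88, Ticam1, Irak3 and, per list and comparison, the 3 with the largest ratio past 2-fold with at least 100 UMIs, of which a selection is printed. The genes most like a receptor were those with the highest correlation among genes with at least 200 UMIs, and the first is printed. Of 102 list genes, Clec7a and Tasl were not in the tables. RefSeq start regions matched 8 of the 10 receptors. Tlr4 and Tlr7 had no entry.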

Additional observations from a re-analysis of the deposited data

Results flagged for a closer look

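Ratios of opposite sign in lung and synovium, with intervals that lay on opposite sides of 0, were found for Tlr6 over all myeloid cells (log2 ratio -0.58 in lung and 1.14 in synovium), Tlr2 in nonclassical monocytes (0.84 and -0.94), Tlr2 in conventional dendritic cells (1.72 and -0.90), Tlr3 in fibroblasts (1.59 and -0.94) and Tlr4 in fibroblasts (1.68 and -0.50). The difference between the tissues was not tested, since each ratio compares 2 libraries. For Tlr6 the makeup of the myeloid class differed as well. Within single lung myeloid types its ratio ran from -1.47 in neutrophils to 1.47 in macrophages, where the interval spanned 0. In synovium it was 0.59 in macrophages, 0.64 in nonclassical monocytes and 1.70 in conventional dendritic cells, with intervals that all spanned 0. The lung fibroblast ratios of Tlr3 and Tlr4 rest on 8 and 15 UMIs in TNF+. The Tlr2 ratio of synovial dendritic cells was 1.76 with each library clustered by itself, and Tlr2 of lung dendritic cells rests on 22 and 223 UMIs.

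Barcodes left out by the filter on cells also held receptor UMIs. The 10 receptors together were at 237 CPM in 1557 left-out barcodes of TNF- lung (125 CPM in kept cells), 405 CPM in 2069 of TNF+ lung (259.6 kept), 114 CPM in 699 of TNF- synovium (99.4 kept) and 113 CPM in 1094 of TNF+ synovium (232 kept). The median depth of the left-out barcodes was 26792, 33705, 24273 and 1591.5 UMIs in the same order. In lung the left-out barcodes were deeper than the kept cells and had more receptor RNA per UMI.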

How the results depend on the processing

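The counts of receptors past 2-fold and of receptors highest in a myeloid type were recomputed with no filter or a stricter filter on cells, doublets removed, other clusterings, other scalings, other minimum UMIs and a 1.5-fold threshold. Of 108 such values, 105 stayed within 1.5 times the reported count. The others were 2 lower receptors in whole lung at 1.5-fold (Tlr3 and Tlr4, beside 37.1% of all genes), 1 higher receptor in synovial myeloid cells with each cell weighted equally (Tlr2) and 1 lower receptor there with a minimum of 100 UMIs (Tlr3, of 7 tested). The first and the last follow from the threshold itself. For the other the cause was not tested. Leaving out the shallow macrophage clusters was chosen after seeing the data. Counts within single types and over the pathway lists are not among the 108. Of the 19 receptor calls within single myeloid types, 11 were lost in at least 1 of 5 alternatives on cells and clusters, and in 19 cases a receptor of such a type passed 2-fold only in an alternative. Tlr3 in synovial macrophages was lost in all 5 and took the other sign with no filter on cells (0.15).

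Of 40 receptor ratios in whole tissue or myeloid cells, 32 kept their sign in every alternative run. Of 280 values of these ratios under alternatives, 47 lay outside the counting interval of the reported ratio. The exceptions were Tlr5 and Tlr9 in whole lung, Tlr1, Tlr9 and Tlr13 in lung myeloid cells, and Tlr4, Tlr5 and Tlr7 in synovial myeloid cells. The widest spans of these were those of Tlr9 in whole lung, from -0.34 to 0.71, and of Tlr1 in lung myeloid cells, from -0.08 to 0.85, where for Tlr1 the high value came with no filter on cells.

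No paired analysis was possible because each group was 1 library, and no library was left out for the same reason. Depth limits Tlr1, Tlr5 and Tlr9 in synovium most, with at most 53 UMIs per library.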

Other observations

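Some small or unnamed groups of cells carried receptor RNA. Plasmacytoid dendritic cells, which are known for Tlr7 and Tlr9, were few in lung, 13 in TNF- and 20 in TNF+, and had Tlr7 at 143 CPM (95% interval 94.8 to 206, 28 UMIs) and 68.5 CPM (42.4 to 105, 21 UMIs). Synovial neutrophils, 26 and 23 cells, had Tlr2 at 292 CPM (225 to 373) in TNF- and 117 CPM (62.3 to 200.2) in TNF+, and Tlr4 at 109.6 CPM (70.2 to 163) and 171 CPM (103 to 267). An unnamed synovial cluster led by Saa3, Mmp13 and Mmp3 held 1 TNF- and 183 TNF+ cells, and had Tlr2 at 46.9 CPM (40.0 to 54.7, 162 UMIs) in TNF+.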
